A study of Homo sapiens with 6 samples.

Results

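The genes described here are the histone genes that carry the systematic names of the histone clusters, in total RNA from SW839, an established human renal cell carcinoma line. They were taken by name alone, from the rows whose symbol is H1-, H2AC, H2BC, H3C or H4C followed by a number, with pseudogenes left out. They are 57 of the 30267 genes in the table, of which 7 encode H1 linker histones, 13 encode H2A, 15 encode H2B, 11 encode H3 and 11 encode H4. By the annotation, 44 of them lie between chr6:26020490-27893843, the large histone cluster of the short arm, and 11 lie between chr1:149782689-149887916. The remaining 2 are H1-10 on chromosome 3 and H1-7 on chromosome 12, which stand alone, so the name "clustered" did not hold for them, and they are given apart below.

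The study silenced RNF25, an E3 ubiquitin ligase, to ask what it does in renal cell carcinoma cells. The 3 shRNF25 libraries came from cells given a short hairpin against RNF25 and the 3 shControl libraries from cells with the pLKO vector, with no allele or drug that separates them otherwise in the labels. The methods describe lentiviral delivery, and the library names point to a single hairpin, so an effect of that hairpin on other transcripts and an effect of RNF25 cannot be told apart. The treatment text of the control samples also names the shRNF25 plasmid, and groups were therefore taken from the genotype labels and library names.

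Most histone protein is made during S phase from the genes of these clusters. Their messenger RNAs are the best known in animal cells to lack a poly(A) tail: the transcript ends just after a conserved stem-loop, which is bound by the stem-loop binding protein SLBP and cut with the help of the U7 small nuclear RNP, and transcription is coordinated by NPAT. The replication-independent histones, such as H2AZ1 and H3-3A, are encoded by single genes that are also read outside S phase. Polyadenylated transcripts of some cluster genes that run past the stem-loop are known from differentiated cells and tumor cell lines, so the libraries, made from total RNA depleted of ribosomal RNA, can hold either kind of transcript.

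The 3′ element that sets these messages apart is shown for members whose values follow, because it marks where the short transcript ends. Sequences were read from GENCODE 29 transcripts (GRCh38), the coordinates cover the 2 arms and the loop between them, and the capitals mark the arms.
H2AC6, chr6:26124669-26124684 (+ strand): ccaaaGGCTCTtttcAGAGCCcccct
H2AC11, chr6:27133515-27133530 (+ strand): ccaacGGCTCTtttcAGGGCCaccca
H2BC21, chr1:149886188-149886203 (- strand): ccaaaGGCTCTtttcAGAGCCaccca
H2BC5, chr6:26158587-26158602 (+ strand): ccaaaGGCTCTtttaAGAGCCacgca
H3C10, chr6:27810516-27810531 (+ strand): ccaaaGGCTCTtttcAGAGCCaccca
H4C8, chr6:26285131-26285146 (- strand): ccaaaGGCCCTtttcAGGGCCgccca
H4C9, chr6:27139654-27139669 (+ strand): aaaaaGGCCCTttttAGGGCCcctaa
A stem-loop of this form was found in GENCODE 29 transcripts of 26 of the 57 genes. Many of the other entries are models of the coding sequence alone, so no match says nothing about the gene. In 19 of the 26 genes the annotated transcript ran on for more than 100 bases past the stem-loop, for example for 1128 bases in H2AC6, 1655 bases in H4C8, 1729 bases in H2BC21 and 769 bases in H3C10. The deposited values are counts per gene and do not tell reads that end at the stem-loop from reads beyond it.

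Neighbouring H2A and H2B genes are often read in opposite directions from 1 short stretch of DNA. Such stretches are printed for 3 pairs, from RefSeq gene starts on GRCh38.p14, because they are the DNA that both genes of a pair share, and the genes of each pair are compared below. Capitals mark 3 motifs on either strand. The first is the TATA box, searched as TATAAA and seen as TTTATA where it lies on the other strand. The second is the box bound by NF-Y, searched as CCAAT and seen as ATTGG on the other strand. The third is the octamer bound by POU2F1, searched as ATTTGCAT and seen as ATGCAAAT on the other strand. Where the TATA box occurs on both strands at 1 place, the capitals run together.
H2BC21 and H2AC20, chr1:149886683-149886917 (+ strand): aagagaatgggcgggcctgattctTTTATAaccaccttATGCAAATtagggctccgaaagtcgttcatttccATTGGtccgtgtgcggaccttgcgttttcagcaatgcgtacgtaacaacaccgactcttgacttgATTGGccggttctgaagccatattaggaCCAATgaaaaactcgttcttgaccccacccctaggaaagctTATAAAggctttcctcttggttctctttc
H2BC4 and H2AC6, chr6:26123927-26124171 (+ strand): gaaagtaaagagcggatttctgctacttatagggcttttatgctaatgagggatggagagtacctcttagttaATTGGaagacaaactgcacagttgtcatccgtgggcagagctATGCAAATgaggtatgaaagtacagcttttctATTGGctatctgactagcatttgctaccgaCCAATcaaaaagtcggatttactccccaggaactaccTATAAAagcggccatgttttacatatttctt
H2BC11 and H2AC11, chr6:27132796-27133042 (+ strand): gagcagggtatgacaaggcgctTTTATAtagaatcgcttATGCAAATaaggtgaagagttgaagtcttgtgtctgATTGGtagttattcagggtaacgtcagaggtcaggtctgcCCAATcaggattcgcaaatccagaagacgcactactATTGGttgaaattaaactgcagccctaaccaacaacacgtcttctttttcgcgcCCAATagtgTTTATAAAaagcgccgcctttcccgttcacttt
Over the 53 genes with an entry among the RefSeq promoters (300 bases, from 250 before to 50 after the start), TATAAA was present in 69.8%, against 12.0% of all 27305 promoters. CCAAT stood in 83.0% of them against 35.7%, and in every H2A, H2B and H3 promoter. The octamer stood in 39.6% against 1.80%, in 9 of 12 H2A and 12 of 15 H2B promoters and in no H1, H3 or H4 promoter. GGTCCG, the core of the site known for the H4 gene factor HINFP, stood in 9 of 9 H4 promoters and in 24.5% of the histone promoters against 11.2% of all. These matches describe letters in these windows and are not evidence of binding.

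The libraries held between 18647460 and 19943154 reads on genes. RNF25 itself fell from 588 ± 92.0 (SD, n = 3) normalized counts in shControl to 242 ± 25.7 (n = 3) in shRNF25, or by -1.27 on the log2 scale (SE 0.15, limma adjusted p = 0.000585). The keratins KRT8 and KRT18 and the renal factor PAX8 were present in every library, and the leukocyte gene PTPRC and the fibroblast gene DCN were at or near 0, while the endothelial gene PECAM1 was present at 400.3 and 452 normalized counts on average. Of the 7 tested renal markers 1 rose (VIM, log2 1.31) and of the 2 tested endothelial markers 1 fell (CDH5, log2 -4.12). The part of these changes in the histone values was not tested. Of shControl replicate 1, 12.1% of reads lay on mitochondrial genes, against 3.58% to 4.44% in the other libraries, and the Pearson correlation across genes was 0.976 to 0.987 between control libraries and 0.994 between shRNF25 libraries. The library names of the controls differ in form from one another, and any batch difference in step with the groups cannot be told apart from that of the hairpin. The design calls the libraries biological triplicates without saying how the cultures were kept apart, so the p-values measure the spread between these libraries.

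The histone genes of the clusters were higher after RNF25 knockdown in all 5 classes. The summed normalized count of the 55 cluster genes was 4084, 4346 and 6090.4 in the shControl libraries and 12337, 11016 and 11070.3 in the shRNF25 libraries. Every shRNF25 library was above every shControl library, and shControl replicate 3 was the highest control. The means were 4840.1 ± 1091 (SD, n = 3) and 11474 ± 747 (n = 3), a ratio of 2.37. As a share of all reads on genes, the cluster genes took 0.0185% to 0.0303% in shControl and 0.0604% to 0.0698% in shRNF25. The 5 most read of them, H2BC12, H2AC6, H1-2, H2BC21 and H4C8, held 60.6% to 68.4% of the reads on cluster genes. In bulk RNA, more cells that make histone RNA and more of this RNA per cell cannot be told apart.

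By class, the sums over the cluster genes moved to a like extent, though single genes gave most of the H1 and H2A sums. H1-2 gave a mean of 599 of 628 normalized counts in shControl and 1479 of 1557 in shRNF25. H2AC6 gave 798 of 993 in shControl and 1863 of 2228 in shRNF25. The H1 sum was 453, 551 and 879 in shControl and 1577, 1530.2 and 1563 in shRNF25, a ratio of 2.48. The H2A sum had means of 993 and 2228, a ratio of 2.24, and the H2B sum 2478 and 5833, a ratio of 2.35. The H3 sum, the smallest, stood at 206 ± 40.7 and 506 ± 30.5 (SD, n = 3 each), a ratio of 2.45, and the H4 sum at 535 ± 86.0 and 1351 ± 145, a ratio of 2.52. In each of the 5 classes the libraries of the groups did not overlap. The 2 clusters also gave like ratios, 2.35 on chromosome 6 and 2.56 on chromosome 1. These sums carry no test, because the genes were chosen with earlier results of these data known.

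**Figure D1:**
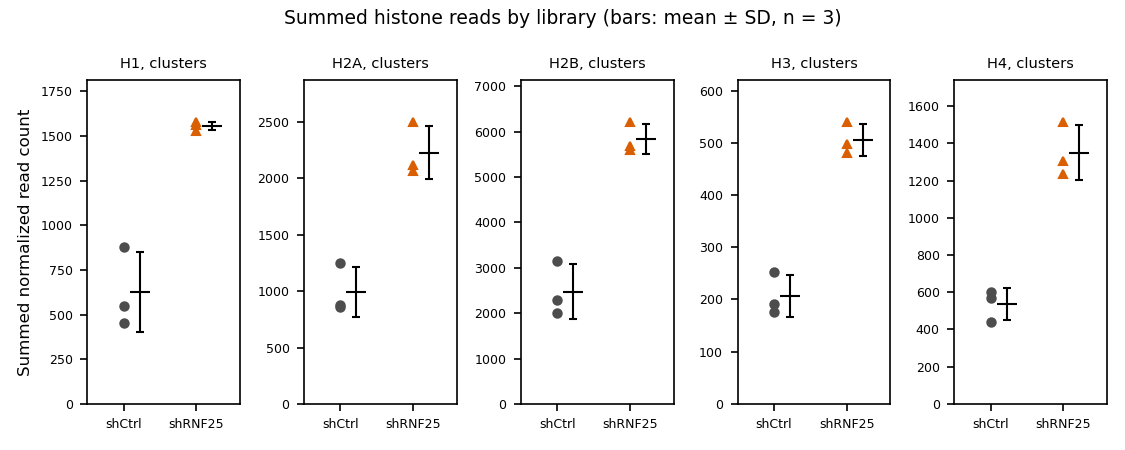
Summed normalized read count (y axis, starting at 0, a separate scale in each panel) of the histone genes of the 2 clusters by class, in the 3 shControl (circles) and 3 shRNF25 (triangles) libraries; bars give the mean ± SD. In each panel all shRNF25 libraries lie above all shControl libraries, with ratios of the means from 2.24 to 2.52. H1-2 gave most of the H1 sum and H2AC6 most of the H2A sum.

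Gene by gene, 35 of the 57 reached 10 normalized counts in 3 or more libraries and were tested with limma. A gene was called at an adjusted p below 0.05 over all 16554 genes tested and a fold of at least 1.5. In this comparison 25 histone genes rose, 1 fell (H1-10) and 9 were not called. Of all genes tested, 8.65% were called higher and 7.1% lower. At a fold of at least 2 the histone counts were 21 higher and 0 lower, beside 5.39% and 3.1% of all genes, and with no fold limit 25 and 1, beside 10.5% and 10.8%. The median log2 fold change was 1.24 over the 35 genes and 1.25 over the 34 of them that lie in the clusters, beside -0.01 over all genes tested, and all 34 cluster genes had a positive value, so that 0 were lower by limma at an unadjusted p below 0.05 and 0 by edgeR or DESeq2. The groups did not overlap for 27 histone genes that were higher and for 1 that was lower, where 20.7% and 21.8% of all genes tested did the same. Calls were commoner among genes with low counts: 16.0% of all genes with a mean under 100 were called higher, 6.96% of those from 100 to 1000 and 2.68% of those at 1000 or more.

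A gene that passes a filter on low values only through the group where it is high had to differ, and the 35 were therefore divided by their controls. Of 26 genes with at least 10 in all 3 shControl libraries, 21 rose and 1 fell. Of 7 genes with at least 10 in 1 or 2 control libraries, 2 rose, and both genes under 10 in all controls rose. Among the 25 cluster genes with at least 10 in all 3 controls the median log2 fold change was 1.25. The 22 genes not tested never exceeded 20.05 normalized counts and together had 31, 43 and 42 reads in shControl and 112, 91 and 99 in shRNF25. Of these, 21 had the higher mean in shRNF25 and 1, H3C15, had the lower mean, with 0 or 1 read per library. H4C4 is the highest of them, at 1.11, 1.03 and 6.48 against 20.05, 12.9 and 7.63. H4C11 had no read in any shControl library, and 2, 6 and 6 reads in shRNF25.

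**Figure D2:**
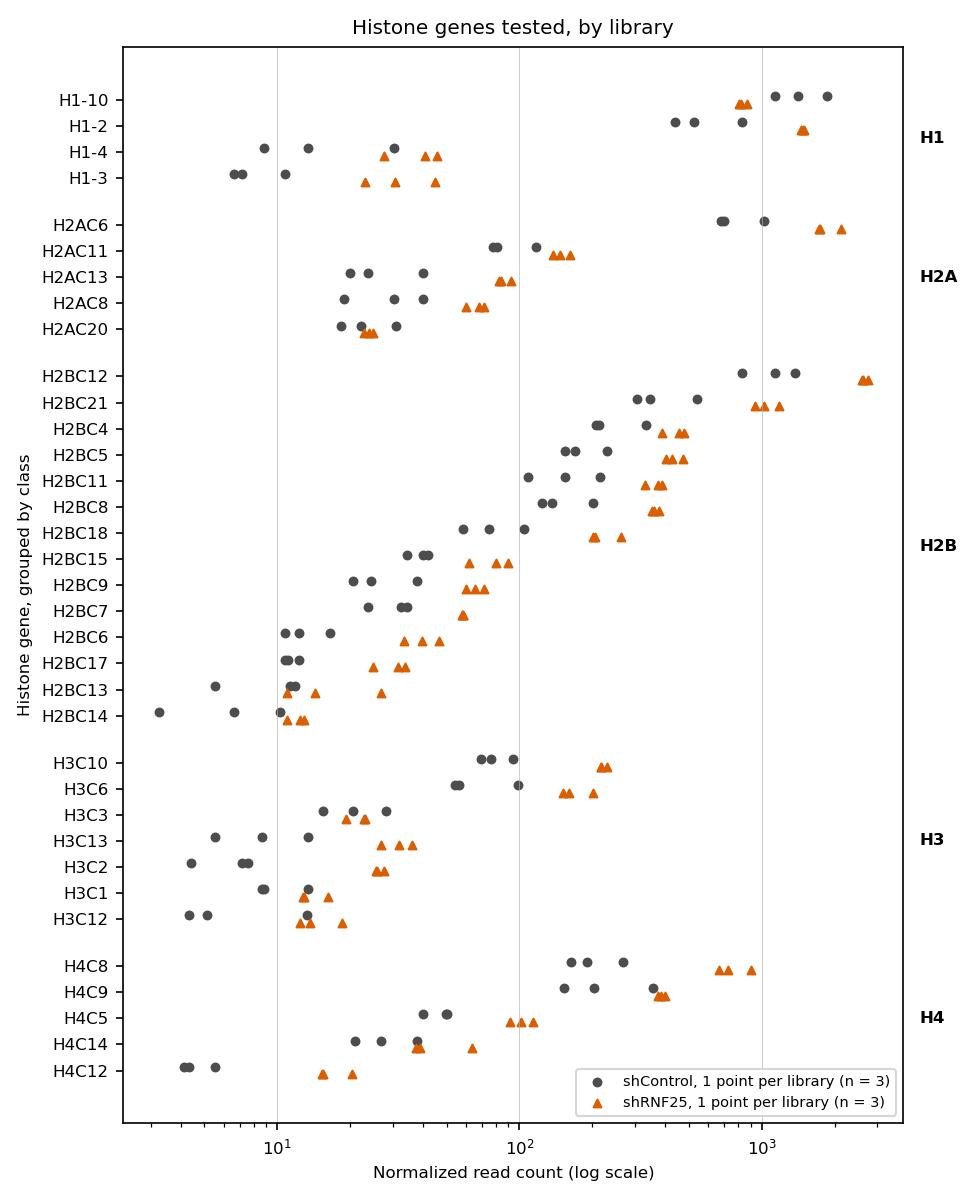
Normalized read count (x axis, log scale) of the 35 tested histone genes, 1 row per gene in order of read count within its class, with 1 point for each of the 3 shControl (circles) and 3 shRNF25 (triangles) libraries. The triangles lie to the right of the circles without overlap in 27 rows, and to the left without overlap in the row of H1-10. Counts are not corrected for gene length, so rows are not to be ranked against each other.

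The nucleosome is wound around a core of H2A, H2B, H3 and H4, and the H2B genes gave the most tested members, 14 of 15. Of these 12 rose and 2, H2BC13 and H2BC14, were not called. H2BC12, on which the most reads of any cluster gene fell, (chr6:27146418-27146798, - strand, a coding model) had 831, 1137 and 1367 normalized counts in shControl and 2747, 2602 and 2618 in shRNF25. Every shRNF25 library was higher, with a log2 fold change of 1.28 (SE 0.17, limma adjusted p = 0.00103). In this gene 74.1% of the 50-base words of its annotated transcript also occur in other annotated transcripts, so reads could have been divided between copies or dropped. H2BC21, the most read gene of the chromosome 1 cluster, had 345, 305 and 542 in shControl and 1181, 1019.6 and 941 in shRNF25, again without overlap. Its log2 fold change was 1.44 (SE 0.20, adjusted p = 0.00158), and only 8.11% of its words are shared. H2BC4 had 208, 213 and 331 against 477, 455 and 389, the smallest rise among the called H2B genes (log2 0.84, SE 0.19, adjusted p = 0.0144). The other called H2B genes, H2BC5, H2BC6, H2BC7, H2BC8, H2BC9, H2BC11, H2BC15, H2BC17 and H2BC18, had log2 fold changes between 0.95 (H2BC7) and 1.53 (H2BC6). H2BC5, H2BC6, H2BC15 and H2BC18 overlap other annotated genes, among them LARP1P1 on the same strand as H2BC5 and FCGR1A on the opposite strand of H2BC18. Whether reads were counted by strand is not given in the sources used here.

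Among the H2A genes, 5 of 13 were tested and 4 rose. H2AC6 had 696, 676 and 1022 normalized counts in shControl and 2125, 1719.6 and 1745 in shRNF25. The groups were apart, with a log2 fold change of 1.24 (SE 0.17, limma adjusted p = 0.00133). H2AC13 rose the most of this class, from 19.9, 23.6 and 39.9 to 83.8, 82.2 and 92.5 (log2 1.66, SE 0.26, adjusted p = 0.00283). H2AC8 rose by 1.20 and H2AC11 by 0.71 on the log2 scale. H2AC20 did not follow, with 22.1, 30.8 and 18.3 in shControl and 22.8, 24.0 and 24.8 in shRNF25. These values overlap, and the log2 fold change was 0.04 (SE 0.26, adjusted p = 0.937).

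For H3, 7 of 11 genes were tested and 4 rose. H3C10 had 69.6, 75.9 and 93.9 normalized counts in shControl and 231, 217 and 216 in shRNF25. Each shRNF25 value was far above the highest control, and H3C10 had the smallest standard error among the tested cluster genes (log2 1.47, SE 0.16, limma adjusted p = 0.00041). H3C2, under 10 in every control and tested only through its shRNF25 values, had the highest fitted value of the 35 genes, with 4.42, 7.18 and 7.55 against 25.5, 25.9 and 27.6 (log2 1.92, SE 0.30, adjusted p = 0.00263). H3C6 and H3C13 rose by 1.32 and 1.74 on the log2 scale. H3C13, with 5.53, 13.3 and 8.63 in shControl, passed the filter only with its shRNF25 values. H3C3 overlapped between the groups, with 15.5, 20.5 and 28.1 against 19.1, 23.1 and 22.9, and a log2 fold change of 0.06 (SE 0.28, adjusted p = 0.909). H3C1 and H3C12 were not called either, at 0.43 and 1.01.

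For H4, 5 of 11 genes were tested and 3 rose. H4C8 had 164, 191 and 268 normalized counts in shControl and 903, 666 and 723 in shRNF25. This gene had the lowest adjusted p of the 35 (log2 1.89, SE 0.20, limma adjusted p = 0.000302), and none of its words are shared with other transcripts. H4C5 had 49.7, 50.3 and 39.9 against 114, 91.4 and 101 (log2 1.12, adjusted p = 0.00338). H4C12, under 10 in every control, rose from a mean of 4.65 to 17.0, and all of its words also occur in other transcripts. H4C9 had 356, 153 and 204 in shControl and 400.0, 385 and 374 in shRNF25. Here shControl replicate 1 lay close to the shRNF25 libraries, the groups did not overlap, and the difference was not called (log2 0.79, SE 0.26, adjusted p = 0.0614). Without shControl replicate 1 the difference was 1.12 and was called.

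H1 linker histones bind the DNA between nucleosomes, and here H1-10, outside the clusters, went against those inside. H1-2 (chr6:26055787-26056428, - strand) had 437, 527 and 833 normalized counts in shControl and 1477, 1459 and 1500.3 in shRNF25. All 3 shRNF25 values were higher and close together, with a log2 fold change of 1.36 (SE 0.21, limma adjusted p = 0.00219). H1-3 also rose, from 6.63, 7.18 and 10.8 to 44.6, 23.1 and 30.5 (log2 1.85, SE 0.33, adjusted p = 0.00472). It passed the filter only with its shRNF25 values. H1-4 was not called (1.22, SE 0.42, adjusted p = 0.0664). Without shControl replicate 3 the value of H1-4 was 1.68 and was called. H1-10, a replication-independent linker histone, had 1858, 1417 and 1139.7 in shControl and 866, 821 and 809 in shRNF25. It fell without overlap, with a log2 fold change of -0.79 (SE 0.17, adjusted p = 0.00972), and an antisense gene, H1FX-AS1, overlaps it. H1-7, a testis gene, had 0 to 3 reads per library.

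**Figure D3:**
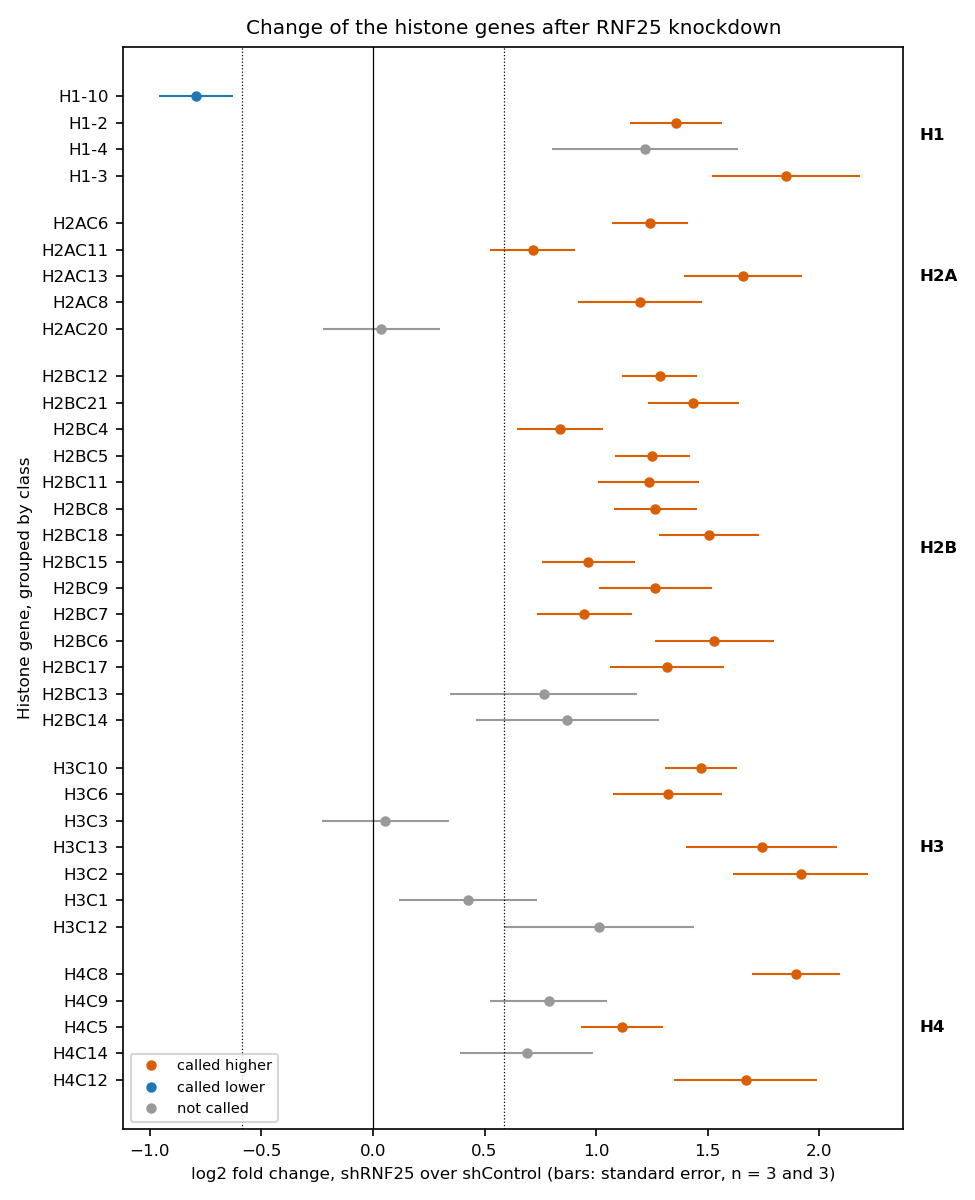
Log2 fold change, shRNF25 over shControl (x axis), of the 35 tested histone genes from limma, with bars for the standard error (3 libraries against 3); colors mark genes called higher, lower or not called, and the dotted lines the fold of 1.5. The cluster genes lie to the right of 0, from 0.04 in H2AC20 to 1.92 in H3C2, which was under 10 counts in every control, and the stand-alone H1-10 lies to the left.

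Taken singly, a comparison of 3 libraries with 3 can give no exact permutation p below 0.1 (two-sided), which is the value for each of the 28 genes whose groups did not overlap. Of the 35 tested genes, 22 had their highest control value in shControl replicate 3, where 31.6% of all genes tested did. Without that library 26 histone genes were called higher, and the log2 ratio of the cluster sums, 1.25 with all libraries, was 1.44. Without shRNF25 replicate 1 or without shRNF25 replicate 2, 20 histone genes were called higher. Calls over all genes also became fewer in these repeats, with 4.52% and 4.98% of genes higher in place of 8.65%. The calls of H2AC11, H2BC4, H2BC15, H2AC8 and H2BC7 were lost when an shRNF25 library was left out, and those of H2AC11 and H2BC4 also without shControl replicate 2. With any library left out, each of the 5 kept a positive value, from 0.61 in H2AC11 to 1.44 in H2AC8.

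The cluster genes were also divided by the length of their annotated models. Of the 55 cluster genes, 22 have a transcript or span of over 1000 bases in GENCODE 29 or RefSeq, and they held 78.4% to 82.2% of the reads on cluster genes. The span includes introns. H2BC12, H2BC4 and H2BC5 are among the 22 by span alone, with longest transcripts of 381, 659 and 789 bases. The division therefore does not separate long from short transcripts. The summed normalized counts of the 22 genes were 3355, 3409 and 4782 in shControl and 9954, 8709 and 8681 in shRNF25, a ratio of 2.37. The other 33 genes had 728, 937 and 1308 against 2383, 2307 and 2389.6, a ratio of 2.38. Of these counts, H1-2 alone gave 437, 527 and 833 in shControl and 1477, 1459 and 1500.3 in shRNF25. In the first group 16 of 18 tested genes rose, and in the second 9 of 16, whose counts are lower. Over the 36 cluster genes with under 10% of their 50-base words in other transcripts the ratio was 2.36, and 18 of 23 tested genes rose. Over the 12 with 50% or more the ratio was 2.40, and 4 of 5 rose. H2BC12 gave most of the latter sum, with a mean of 1112 of 1194 normalized counts in shControl and 2656 of 2864 in shRNF25.

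The H2B and H2A genes that share an intergenic stretch were compared within each pair, with too few libraries for the exact test to pass a threshold. H2AC20, in the first pair, held only 17 to 30 reads per library. For H2BC21 and H2AC20, the stretch printed first, the log2 ratio of H2B to H2A was 3.90, 3.27 and 4.81 in shControl and 5.64, 5.35 and 5.19 in shRNF25. The ratio was higher in all shRNF25 libraries, by 1.40 on average. For H2BC4 and H2AC6 it was lower by 0.40, with -1.74, -1.66 and -1.62 against -2.15, -1.91 and -2.16. For H2BC11 and H2AC11 it was higher by 0.52, from a mean of 0.76 to 1.28. In these 3 pairs, whose stretches are the ones printed above, the libraries did not overlap. The exact two-sided permutation p was 0.1, the smallest possible, and 0.167 after adjustment over the 5 pairs compared, so none of the differences passed a threshold. H2BC8 and H2AC8 rose together, with a ratio that differed by 0.07 (exact p = 1.0), and H2BC13 and H2AC13 differed by -0.89 (exact p = 0.3).

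**Figure D4:**
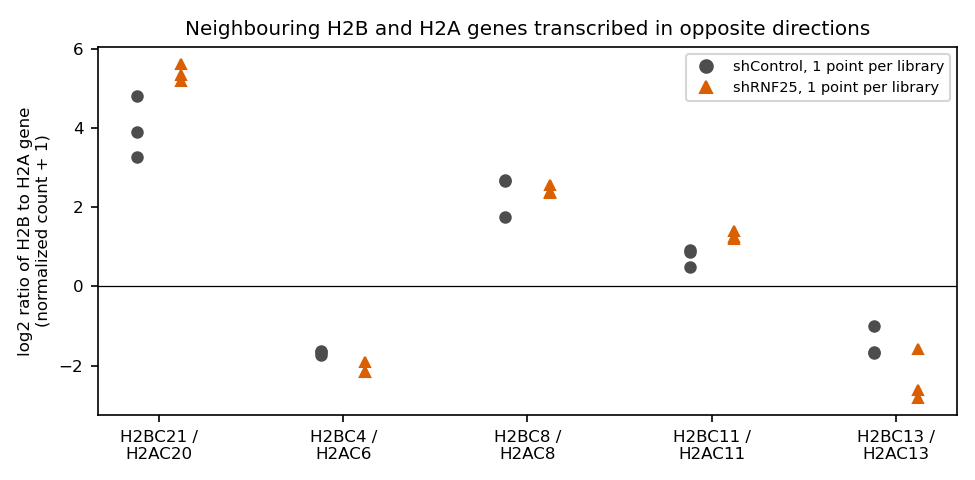
Log2 ratio of the H2B gene to the H2A gene, from normalized count + 1 (y axis), in 5 pairs of neighbouring genes read in opposite directions (x axis), for the 3 shControl (circles) and 3 shRNF25 (triangles) libraries. The libraries are apart in the pairs H2BC21 and H2AC20, H2BC4 and H2AC6, and H2BC11 and H2AC11, with the ratio up by 1.40, down by 0.40 and up by 0.52, and they overlap in the other pairs.

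Genes that make or carry histone RNA and protein were compared with all genes tested, of which 8.65% were called higher and 7.1% lower. Of 39 tested genes for histone mRNA production and decay, 0 rose and 1, POU2F1, fell by limma, with a median log2 fold change of -0.06, so both shares lay under those of all genes. At an unadjusted p below 0.05, 1 was higher and 6 were lower, and edgeR and DESeq2 called 0 higher. The share of all genes at this unadjusted limit was not counted, so these numbers are not read as a result about the list. POU2F1, which binds the octamer of H2B promoters, had 1563, 1181 and 1139.7 normalized counts in shControl and 779, 822 and 825 in shRNF25 (log2 -0.66, SE 0.14, limma adjusted p = 0.00904). The call was lost without shControl replicate 1 (log2 -0.52, under the fold limit), without shRNF25 replicate 1 (adjusted p = 0.0556) and under quantile normalization. SLBP had 1313, 1092 and 1059 against 791, 949 and 916. Its libraries did not overlap, and the difference was not called (log2 -0.38, SE 0.13, adjusted p = 0.0631). NPAT, the coordinator of histone gene transcription, and its partner CASP8AP2 stood at -0.46 and -0.42 and were not called. HINFP, the H4 gene factor, was higher in all shRNF25 libraries at a log2 value of 0.46 with an adjusted p of 0.0411, under the fold limit. The U7-specific proteins LSM10 (0.28), LSM11 (-0.17) and ZNF473 (-0.19), the cleavage factors CPSF3 (-0.28) and SYMPK (-0.20), and the decay factors ERI1 (-0.39) and UPF1 (0.16) were not called either.

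Of 10 tested replication-independent histone genes, 0 rose and 1, H1-10, fell, with a median of -0.12, and 0 were higher at an unadjusted p below 0.05 or by edgeR or DESeq2. In a list of 10 genes these counts are close to the shares of all genes. H2AX (-0.24), H2AZ1 (0.24), H3-3A (-0.13), H3-3B (-0.25) and CENPA (-0.12) were not called. Of 26 tested histone chaperone genes 0 rose and 2 fell, HJURP, the chaperone of CENPA, at -0.68 and SPTY2D1 at -0.63, with a median of -0.20. The count of chaperones lower is near the 7.1% of all genes, and it was 1 without shControl replicate 1 or without shRNF25 replicate 1 (HJURP then at -0.56 and not called in the latter) and 4 without shControl replicate 3. At an unadjusted p below 0.05, 2 were higher and 10 lower, but the share of all genes at this limit was not counted. The unadjusted numbers are therefore not read as a result about the chaperones. By edgeR 0 were called higher and by DESeq2 1, HIRA. Of 36 tested S-phase genes 0 rose and 4 fell, RRM2 and CCNE1 (both -0.79), PRIM1 (-0.67) and CDK2 (-0.60), with a median of -0.19, beside 8.65% and 7.1% of all genes. Without shControl replicate 1 or without shRNF25 replicate 1, 2 S-phase genes were called lower. At an unadjusted p below 0.05, 1 was higher and 10 were lower, and edgeR and DESeq2 called 0 higher. Here too the share of all genes at the unadjusted limit was not counted, and the same restriction holds. RRM2, a subunit of ribonucleotide reductase, had 8899, 7776 and 7101 in shControl and 4060.2, 4777 and 4926 in shRNF25 (limma adjusted p = 0.00267), so that the gene fell without overlap in libraries in which the cluster histone genes rose. The share of cells in S phase was not measured in these files.

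Few rows of other short RNAs without a poly(A) tail were found in these counts. Whether such RNAs were scarce in the libraries or left out in counting cannot be told apart. Of 15 such genes 5 were among the rows, and 2 were tested, neither of which was called. RN7SL1, the RNA of the signal recognition particle, had 181, 560.2 and 287 normalized counts in shControl and 1717, 399.9 and 427 in shRNF25. Its libraries overlapped and shRNF25 replicate 1 stood far above the rest (log2 1.11, SE 0.56, limma adjusted p = 0.19). In the histone sums of the clusters that library was also the highest of the shRNF25 libraries, at 12337 beside 11016 and 11070.3. Without it the log2 ratio of the sums was 1.19. A link between RN7SL1 and the histone sums was not tested.

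**Figure D5:**
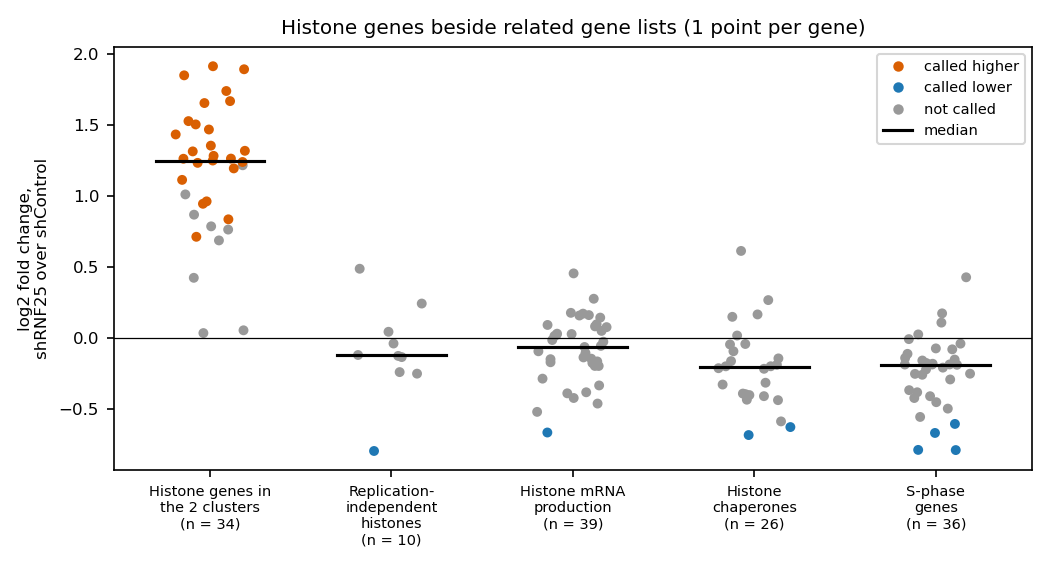
Log2 fold change, shRNF25 over shControl (y axis), of every tested gene (1 point each) in the 2 histone clusters and in 4 related lists (x axis); colors mark genes called higher, lower or not called, and the line is the median. The cluster genes have a median of 1.25 and no value below 0, and the medians of the other lists lie between -0.20 and -0.06, with H1-10 counted among the replication-independent histones.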

How the data were processed

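Values were taken from 1 table in which the authors deposited a normalized count for each gene and library, a signal that is the read count divided by 1 factor per library. The submitters' processing notes name fastp, HISAT2, HTSeq and GRCh38. The annotation and the strand setting are not given in the sources used here. HTSeq can leave out reads that fit several copies of a gene. The study's methods describe a stranded kit after removal of ribosomal RNA, and DESeq2 for differential expression. Reads came back whole for 100% of values (tolerance 0.01).

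Values were fitted as log2(normalized count + 1) with limma 3.58.1 in R 4.3.3 (eBayes with trend, no covariates), over genes with at least 10 in at least 3 of 6 libraries, with Benjamini-Hochberg adjustment. A fold change is on this scale and understates changes of genes with few reads. Calls need an adjusted p below 0.05 and a fold of 1.5, the study's criteria. Alternatives were edgeR 4.0.16 and DESeq2 1.42.0 on the recovered reads, other pseudocounts (5 and 0.5), filters, scalings and fold limits, the replicate number as a block, and each library left out. The script was tested on simulated data.

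Members and lists were chosen with earlier results of these data known. Of the genes that the rule takes in, 1 is not reported here. Genes were named by a fixed rule: the 3 most read genes of each class, every called gene, the 3 highest and 3 lowest fold changes, chosen factors of histone RNA, and the largest called fold of each other list. Positions and transcripts come from GENCODE 29, in which 56 of the 57 genes were matched, and promoters from RefSeq (53 genes).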

Additional observations from a re-analysis of the deposited data

How the results depend on the processing

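Across all alternatives 19 to 27 histone genes were called higher (20 to 27 with a library left out, 26 with the replicate block, which changed no count by over 1.5 times), the median log2 fold change lay between 1.09 and 1.42, and the log2 ratio of the cluster sums, an addition made after the data were seen, between 1.14 and 1.44. The count of histone genes lower, 1, was 0 at a fold of at least 2 and 1 with each library left out. At that fold the genes lower also numbered 0 among the replication-independent histones, the production genes, the chaperones and the S-phase genes. With no fold limit, 2 production genes were lower and 1 higher, and 7 S-phase genes were lower. Under quantile normalization 0 production genes and 1 chaperone were lower, and after rescaling 1 chaperone; DESeq2 called 1 chaperone higher. With a library left out, 0 to 1 production genes, 1 to 4 chaperones and 2 to 5 S-phase genes were lower, and 0 to 1 replication-independent histones (1 without shControl replicate 3) and 0 to 1 chaperones were higher. H3C3 turned to -0.20 and H2AC20 to -0.21 under quantile normalization. With a library left out, H3C3 lay between -0.14 (without shControl replicate 1) and 0.26, and H2AC20 between -0.13 (without shControl replicate 3) and 0.23. For none of these shifts was a cause tested. Of the values for single genes, 698 stayed on their side, 18 lost and 6 gained a call, and 4 changed sign. Scalings moved the median of all genes by under 0.1, and calls were 54.9% higher, or 50.9% under quantile normalization and 62.6% after rescaling. The numbers of the replicates did not pair the libraries, with correlations of -0.06, -0.09 and 0.05 between same-numbered ones. Counts of few reads limit the 22 genes not tested.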

Other observations

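Other rows of histone sequence are described here, chosen after their values were seen, except the testis histones, which were planned as a low-level comparison. H2AW had 91.8, 192 and 264 normalized counts in shControl and 447, 404 and 422 in shRNF25 (limma log2 fold change 1.34, SE 0.32, adjusted p = 0.0172). H4-16 had 19.9, 22.6 and 39.9 against 79.3, 69.3 and 74.3 (log2 1.47, SE 0.27, adjusted p = 0.0054). H2BU1 stood at 0.69 with an adjusted p of 0.0824 and was not called, though its libraries did not overlap. Of 8 histone pseudogenes in the table, 3 were tested and all 3 rose, with log2 fold changes between 1.16 and 1.39, beside 8.65% of all genes tested that were called higher, or 16.0% of those with a mean under 100. The testis histone H1-6, itself a cluster gene counted above, had a mean of 2.47 and 5.55 normalized counts in shControl and shRNF25. H3-4 had a mean of 1.43 and 3.10, and both had too few to be tested.

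Genes of other kinds also lie between the first and the last histone gene on chromosome 6. Of 35 such genes 21 were tested, of which 3 rose and 2 fell, beside 8.65% and 7.1% of all genes tested, with a median log2 fold change of -0.09. The iron regulator HFE rose from 9.95, 11.3 and 19.4 normalized counts to 45.6, 44.3 and 38.1 (limma log2 1.64, SE 0.29, adjusted p = 0.00458). The unnamed loci AL021807.1 and AL031777.2 both rose by 1.46. HFE and AL031777.2 (8.84, 7.18 and 12.95 in shControl) passed the filter only with their shRNF25 values. The butyrophilins BTN3A1 and BTN3A2 fell, by 0.82 and 0.65 on the log2 scale.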
